A study of Mus musculus with 4 samples.

Results

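Collagen chain genes were followed by RNA-seq in anagen hair follicle stem cells, that is, in follicles that are growing hair, of the mouse strain C57BL/6. The members were the 42 genes, of 55401 in the table, whose symbol follows the pattern of a collagen chain (Col, a type number, a and a chain number), with Col17a1 and Col7a1 left out. They fell into 11 fibrillar chains, 6 basement membrane chains of type IV and 25 other chains. The groups were mice given a high-fat diet for 4 months (HFD, 2 libraries) and mice given a normal diet (ND, 2 libraries), all of the same strain and tissue. The labels gave neither the duration of the normal diet, nor the composition of the diets, nor the way the cells were isolated. They also left unsaid whether each library was a different animal, so a p-value here reflects library-to-library spread that may be technical.

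Collagens are secreted or membrane-bound proteins whose alpha chains, rich in repeats of glycine followed by other residues, wind into triple helices. Fibrillar collagens form the banded fibrils of the dermis, type IV collagen forms the sheet-like network of basement membranes, and further types decorate fibrils, form microfibrils or span the cell membrane. Follicle stem cells sit on a basement membrane that separates them from the dermal sheath, whereas collagen types I and III are chiefly products of fibroblasts.

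Promoter windows are shown for the type IV pair that lies head to head at a shared start, because both chains were among the 3 members with the highest FPKM (counts scaled to exonic length and library total) and neither passed the test between diets, and for Col27a1, the member that passed the test. Each window holds 250 bases before and 50 bases after a RefSeq start on GRCm38.p6, read 5′ to 3′ on the strand of the gene. For Col4a1 (chr8:11312777-11313076, minus strand) and Col4a2 (chr8:11312555-11312854, plus strand) capitals mark the 78 bases that both windows share, on opposite strands.
Col4a1: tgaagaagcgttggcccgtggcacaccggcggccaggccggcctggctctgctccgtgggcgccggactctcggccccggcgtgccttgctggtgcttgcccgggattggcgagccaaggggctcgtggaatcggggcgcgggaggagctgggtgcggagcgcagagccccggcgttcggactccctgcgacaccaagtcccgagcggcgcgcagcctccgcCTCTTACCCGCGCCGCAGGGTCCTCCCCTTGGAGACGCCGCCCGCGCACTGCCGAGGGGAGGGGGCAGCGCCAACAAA
Col4a2: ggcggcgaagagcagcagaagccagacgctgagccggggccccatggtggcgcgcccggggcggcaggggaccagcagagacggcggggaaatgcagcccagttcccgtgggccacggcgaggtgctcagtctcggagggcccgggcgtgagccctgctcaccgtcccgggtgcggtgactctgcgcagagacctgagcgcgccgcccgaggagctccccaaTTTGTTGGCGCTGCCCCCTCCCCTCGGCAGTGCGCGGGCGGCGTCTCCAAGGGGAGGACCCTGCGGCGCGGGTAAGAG
For Col27a1 (chr4:63215162-63215461, plus strand) capitals mark the matches to the GC box GGGCGG on either strand.
Col27a1: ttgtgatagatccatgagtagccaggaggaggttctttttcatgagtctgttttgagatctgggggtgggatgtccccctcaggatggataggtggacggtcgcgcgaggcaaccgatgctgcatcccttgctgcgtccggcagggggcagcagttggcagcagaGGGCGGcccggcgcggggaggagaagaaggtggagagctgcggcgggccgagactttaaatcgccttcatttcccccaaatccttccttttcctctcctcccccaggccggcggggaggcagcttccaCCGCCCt
The Col27a1 window starts from a RefSeq start 1408 bases downstream of the gene start in the table. The starts of Col4a1 and Col4a2 lay 21 bases apart, and the transcribed regions overlapped by 22 bases. The GC box matched 1 time in the Col4a1 window, 3 times in the Col4a2 window and 2 times in the Col27a1 window, counting both strands. Of the 36 windows listed for 33 members, 61.1% held a GC box, against 35.7% of all 32851 windows. The CCAAT box (CCAAT) was in 30.6% of member windows and 37.4% of all windows, and the TATA box (TATAAA) in 11.1% and 13.6%. These are matches of letters, not sites shown to be bound.

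Total counts were 8734246 and 8590570 in the HFD libraries and 9940848 and 9366856 in the ND libraries, and members took between 0.221% and 0.248% of them. The HFD libraries differed least from each other, with a chi-square per degree of freedom of 6.87 over genes, against 14.9 between the ND libraries. The first ND library was most often the highest or the lowest of the 4, for 57.7% of all tested genes and for 16 of 25 tested members. The other libraries were so for 46.9% to 48% of genes and for 9 to 14 members. In edgeR's quasi-likelihood test 162 of 14479 genes were higher (1.12%) and 33 lower (0.228%) at an adjusted p under 0.05. With equal sums of TPM 88 were higher and 3 lower, and with library totals alone 132 were higher and 65 lower. Of 10 hair follicle stem cell markers 10 were detected and tested, and their summed level was 20299 and 18871 CPM (counts scaled to library size with TMM factors) in HFD and 14500 and 16466 CPM in ND libraries. Krt5, Krt14 and Krt15 made up most of that sum, and these and Itga6 had positive log2 fold changes, with Krt14 called higher (edgeR adjusted p = 0.033). The other 6 (Cd34, Lgr5, Sox9, Lhx2, Nfatc1 and Tcf3) had negative ones with HFD below ND, of which edgeR called 0 and DESeq2 called Lhx2. The summed CPM of 10 fibroblast markers was 56.4 and 67.2 in HFD and 37.1 and 40.2 in ND libraries, with positive log2 fold changes for 5 of 5 tested. For 7 smooth muscle and dermal sheath markers it was 26.7 and 28.1 in HFD and 16.7 and 17.0 in ND libraries (6 of 6 positive), and for 6 endothelial markers 18.9 and 24.3 in HFD and 10.2 and 15.5 in ND libraries (5 of 5 positive). None of the genes of these 3 lists was called by edgeR, with 1 fibroblast, 2 smooth muscle and 0 endothelial genes at an unadjusted p under 0.05, nor by DESeq2 or limma. Vim and Thy1 made up most of the fibroblast sum in every library. Vim had 31.2 and 37.2 CPM in HFD and 28.8 and 21 CPM in ND libraries. Thy1 had 13.4 and 16.7 CPM in HFD and 1.36 and 8.9 CPM in ND libraries. The sum of 8 dermal papilla markers was 71.3 and 54.4 CPM in HFD and 82.8 and 83.5 CPM in ND libraries (0 of 2 tested positive). Nearly all of it was Trps1, at 69.2 and 50.2 CPM in HFD and 77.4 and 80.1 CPM in ND libraries. Immune markers summed to 15.6 and 20.2 CPM in HFD and 9.23 and 13.8 CPM in ND libraries (4 of 5 positive). The Schwann (2 of 3 positive) and melanocyte (0 of 3 positive) sums overlapped between the diets. Ngfr made up most of the Schwann sum, at 58.9 and 50.9 CPM in HFD and 44.4 and 62.9 CPM in ND libraries. The listed markers Twist2 (fibroblasts), Corin, Sox2 and Rspo2 (dermal papilla) and Adipoq, Plin1 and Cidec (adipocytes) had 0 counts in every library. Twist2 was the only 1 of the 10 fibroblast markers without a count.

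A single collagen chain, Col27a1, passed the test between diets, and it was lower in HFD. Of the 42 members 38 had a count and 25 passed the filter on low counts. A member could pass through the libraries of a single diet. Of these 25, 0 were higher and 1 was lower in HFD, where 1.35% of all genes tested were called. At an unadjusted p under 0.05, 4 members were higher and 2 lower, where 7.24% of all genes tested were higher and 6.03% lower (13.3% in all). Of the 24 members with an adjusted p in DESeq2, 2 were called higher and 1 lower, where 1.98% of all genes were called higher and 0.855% lower. Limma on log2(FPKM + 1) called 0 members, but only 2 genes in all, both higher (0.0138%). Log2 fold changes were positive for 13 members and negative for 12, against 50.1% positive and 49.9% negative over all genes. The median log2 fold change was 0.02 over the 25 members and 0.00 over all genes tested. On the TMM scale (CPM) HFD and ND values did not overlap for 9 members, 7 with HFD above ND and 2 below. This held for 44.6% of all genes tested (22.7% above and 21.9% below). Col1a1 and Col15a1 were among the 7 on this scale, but overlapped in FPKM (Col1a1) or in counts (Col15a1). In bulk RNA a change in the number of cells of a type and a change in RNA per cell cannot be told apart.

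**Figure D1:**
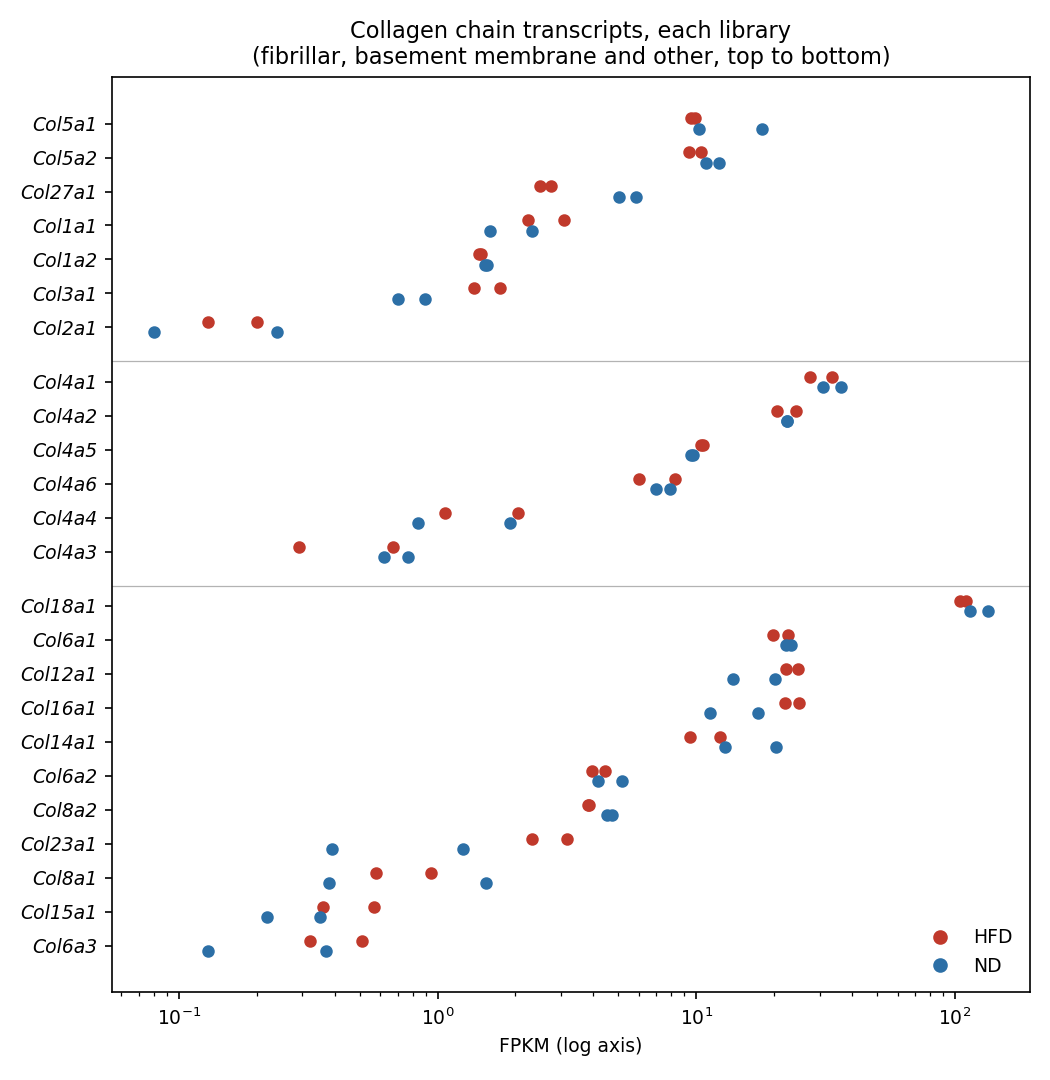
FPKM (log axis) of 24 tested collagen genes in each library, HFD in red above ND in blue, grouped from top to bottom into fibrillar, basement membrane and other chains and ordered by mean FPKM. Col18a1 stands above 100 FPKM in every library, and Col27a1 has both HFD values below both ND values. Col9a3 is left out because it is listed at 0 in the first HFD library.

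Per exonic length, the transcript with the highest FPKM among the members was Col18a1, followed by the ubiquitous type IV chains Col4a1 and Col4a2. Of the FPKM summed over all members, fibrillar chains made up 9.43% ± 0.0878 in HFD and 11.3% ± 1.70 in ND (SD, n = 2 each). Type IV chains made up 24.1% ± 0.604 in HFD and 23.6% ± 1.78 in ND, and the other chains 66.5% ± 0.516 in HFD and 65.1% ± 3.47 in ND (SD, n = 2 each). The spread in ND came with a first ND library that was richer in fibrillar chains, at 12.5% against 10.1% in the second.

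Fibrillar chains included the member that passed the test. Of 11 members 7 were tested, 0 were higher and 1 was lower (edgeR), and log2 fold changes were positive for 4 and negative for 3, with a median of 0.02. Summed over all 11 chains, the level was 286 and 265 CPM in HFD and 360 and 311 CPM in ND libraries. The HFD libraries lay below both ND libraries, a log2 ratio of -0.28. For such sums an exact permutation of 2 against 2 libraries cannot give a two-sided p below 0.333, so none was used. Without Col27a1 the sums overlapped, at 253 and 228 CPM in HFD and 287 and 247 CPM in ND libraries.

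Col27a1, a fibrillar chain best known from cartilage (chromosome 4, positions 63214004 to 63334991, plus strand), had 282 and 307 counts in HFD and 754 and 611 counts in ND libraries. Both HFD libraries were below both ND libraries. Its level was 2.61 ± 0.184 FPKM in HFD and 5.42 ± 0.573 FPKM in ND (SD, n = 2 each). It fell in HFD with a log2 fold change of -0.97 ± 0.17 (SE; edgeR adjusted p = 0.023), the 77th smallest p of the 14479 genes. The log2 fold change lay between -1.06 and -0.86 when each library was left out in turn. The call was lost each time, with adjusted p of 0.162 and 0.081 without the first and the second HFD library and 0.464 and 0.141 without the first and the second ND library. It was also lost with equal sums of TPM (log2 fold change -1.04, adjusted p = 0.062) and with limma on log2(FPKM + 1) (-0.83, adjusted p = 0.192) and log2(FPKM + 0.1) (-1.02, adjusted p = 0.202). It held with DESeq2 (-0.97, adjusted p = 0.00058) and under the other filters, scalings and priors tried, with adjusted p of at most 0.024.

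Type V collagen, which starts type I fibrils and limits their width, had the fibrillar chains with the highest FPKM. Col5a1 had 9.87 and 9.55 FPKM in HFD and 17.9 and 10.3 FPKM in ND libraries. The first ND library was high and the other 3 were close together. Its log2 fold change of -0.45 ± 0.21 (SE) did not pass (edgeR adjusted p = 0.392) and was -0.00 without the first ND library and -0.79 without the second. Its partner chain Col5a2 had 10.4 and 9.41 FPKM in HFD and 10.9 and 12.2 FPKM in ND libraries, with a log2 fold change of -0.14 ± 0.14 (SE; edgeR adjusted p = 0.742).

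The chains of types I and III, the bulk of dermal fibrils, were low in these libraries. Col1a1 had 3.07 and 2.23 FPKM in HFD and 1.59 and 2.31 FPKM in ND libraries, and Col1a2, the other chain of type I, had 1.47 and 1.45 FPKM in HFD and 1.55 and 1.52 FPKM in ND libraries. The second libraries of the diets were close for Col1a1. Its log2 fold change was 0.53 ± 0.30 (SE; edgeR adjusted p = 0.50), and that of Col1a2 was 0.02 ± 0.24 (SE). Col3a1, the type III chain of pliable tissue, had 150 and 116 counts (1.75 and 1.38 FPKM) in HFD and 68 and 82 counts (0.70 and 0.89 FPKM) in ND libraries. Both HFD libraries were above both ND libraries, and the log2 fold change of 1.06 ± 0.32 (SE) did not pass (edgeR adjusted p = 0.168). The fibroblast, smooth muscle and endothelial marker sums given above were higher in the HFD libraries too, and their part in the values of Col1a1 and Col3a1 was not tested. The fibroblast sum was mostly Vim and Thy1. Summed, the 3 chains of types I and III stood at 57.8 and 47.5 CPM in HFD and 35.4 and 42.0 CPM in ND libraries.

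The remaining fibrillar chains were low, with at most 21 counts in any library. The floor of 3 counts per library corresponded to between 0.291 and 0.359 CPM. Col2a1, the main collagen of cartilage, had 16 and 10 counts in HFD and 7 and 21 counts in ND libraries, which overlapped. Col5a3 had 9 and 19 counts in HFD and 6 and 0 counts in ND libraries and was not tested. Col11a1, Col11a2 and Col24a1, which are also minor fibrillar chains, had at most 9 counts in any library. Counting intervals and floors cover counting error only.

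**Figure D2:**
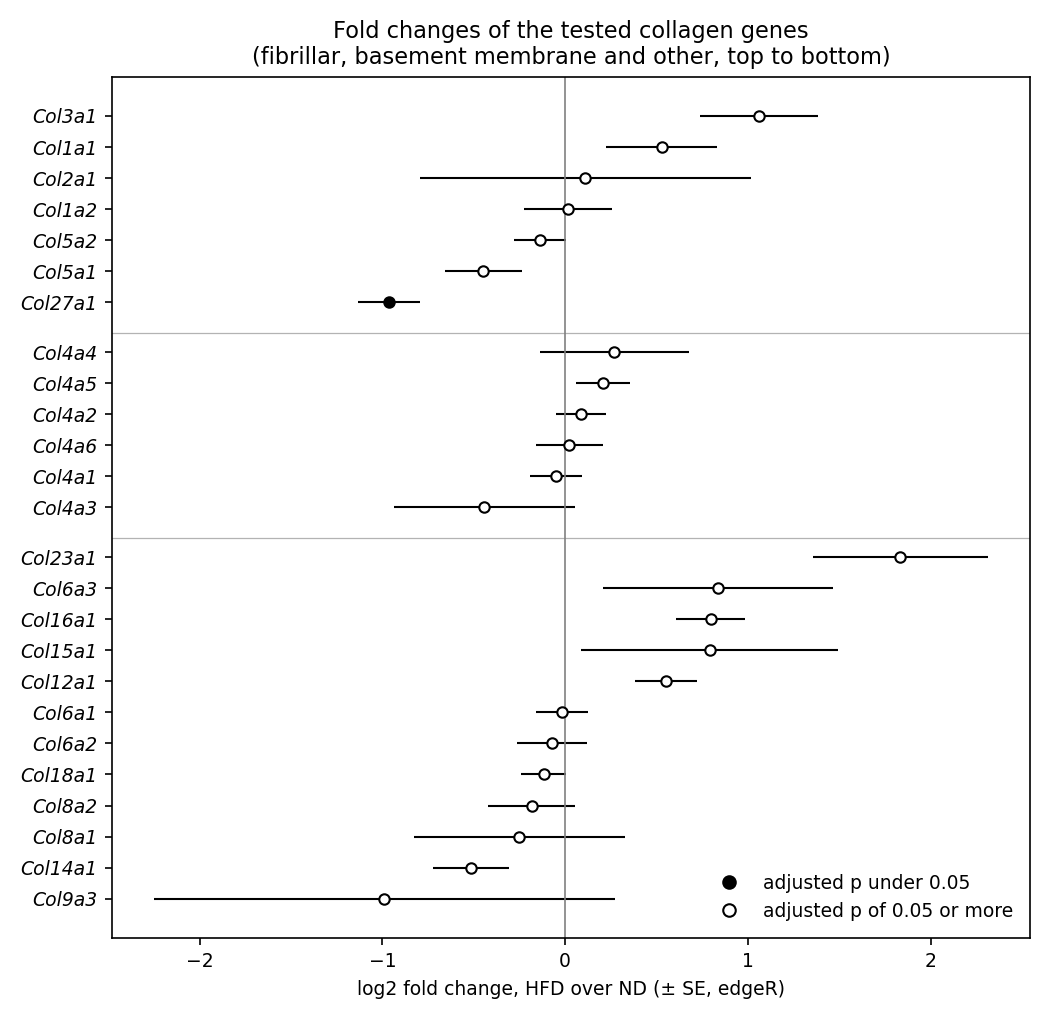
Log2 fold change of HFD over ND with its standard error (edgeR, 2 libraries against 2) for the 25 tested members, ordered by size within the fibrillar, basement membrane and other chains. Col27a1 at -0.97 is the only filled point (adjusted p under 0.05), and Col23a1 at 1.84 lies farthest to the right.

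No basement membrane chain passed the test. All 6 type IV chains were tested, 0 were higher or lower (edgeR, with 0 at an unadjusted p under 0.05 and 0 by DESeq2 or limma), and log2 fold changes were positive for 4 and negative for 2, with a median of 0.05. Summed, the class stood at 581 and 504 CPM in HFD and 542 and 518 CPM in ND libraries, and the diets overlapped.

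Col4a1 and Col4a2 form the network found in nearly all basement membranes. Col4a1 had 33.5 and 27.5 FPKM in HFD and 36.3 and 30.9 FPKM in ND libraries, with a log2 fold change of -0.05 ± 0.14 (SE). Col4a2 had 24.4 and 20.4 FPKM in HFD and 22.3 and 22.5 FPKM in ND libraries, with one of 0.09 ± 0.14 (SE). Both overlapped between the diets, and edgeR adjusted p were 0.931 and 0.855. Col4a5 and Col4a6, X-linked chains that lie head to head with starts 1309 bases apart and occur together in the basement membrane of skin, came next. Col4a5 had 10.6 and 10.4 FPKM in HFD and 9.57 and 9.73 FPKM in ND libraries. The HFD values were above both ND values by a small margin, with a log2 fold change of 0.21 ± 0.15 (SE; edgeR adjusted p = 0.609). Col4a6 had 5.99 and 8.28 FPKM in HFD and 7.91 and 6.99 FPKM in ND libraries, which overlapped (log2 fold change 0.02 ± 0.18, SE).

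Col4a3 and Col4a4, chains best known from the kidney glomerulus, were low and varied between libraries of a diet. Col4a4 had 190 and 98 counts in HFD and 89 and 190 counts in ND libraries. The diets overlapped, and its log2 fold change was 0.27 ± 0.41 (SE). Col4a3 had 58 and 25 counts in HFD and 61 and 72 counts in ND libraries, with a log2 fold change of -0.44 ± 0.49 (SE; edgeR adjusted p = 0.769). Their starts lay 72 bases apart, head to head, and their fold changes had opposite signs, neither beyond its error.

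Ratios of FPKM were read for chains that assemble together. Such a ratio depends on the exonic sizes used, and is not a ratio of counts. The sizes were 4380 bases for Col6a1 and 8326 for Col6a2, and 6563 for Col1a1 and 12426 for Col1a2. Col4a1 to Col4a2 was 1.38 and 1.35 in HFD and 1.62 and 1.38 in ND libraries. The second ND library stood level with the first HFD library in this ratio. Col5a1 to Col5a2 was 0.950 and 1.01 in HFD and 1.64 and 0.840 in ND libraries, with the highest ratio in the first ND library. Col6a1 to Col6a2 was 5.72 and 4.46 in HFD and 4.30 and 5.57 in ND libraries, and Col4a5 to Col4a6 was 1.77 and 1.25 in HFD and 1.21 and 1.39 in ND libraries. Both pairs overlapped. Col1a1 to Col1a2 was 2.09 and 1.54 in HFD and 1.03 and 1.52 in ND libraries, where the second library of each diet nearly coincided. Col4a3 to Col4a4 was 0.327 and 0.271 in HFD and 0.738 and 0.403 in ND libraries, with HFD lower on few counts. These ratios of values from 2 libraries a diet were not tested.

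**Figure D3:**
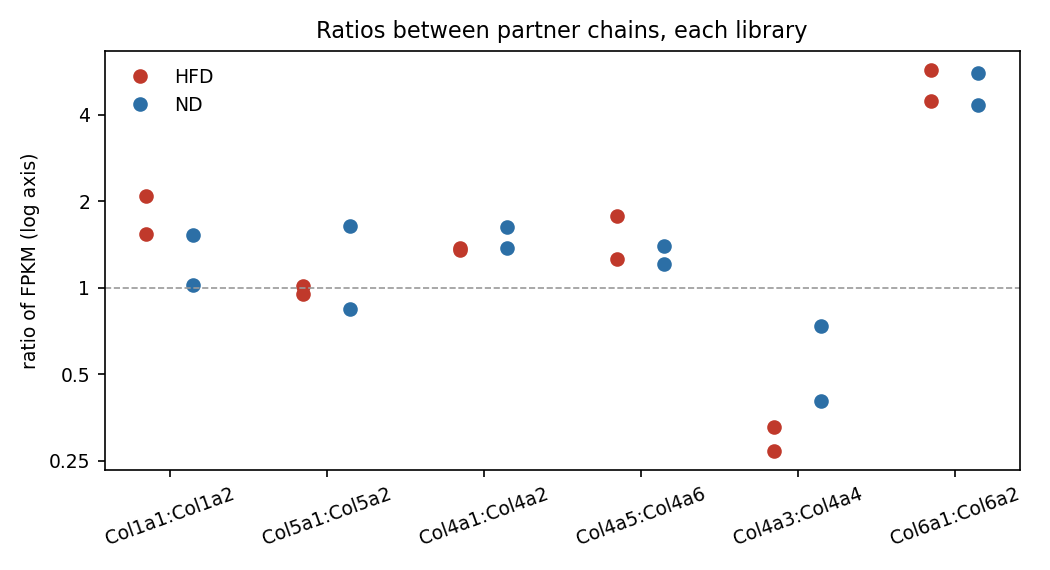
Ratio of FPKM between partner chains (log axis) in each library, HFD in red left of ND in blue; the dashed line marks equal FPKM. Col6a1 to Col6a2 lies between 4.30 and 5.72 in all 4 libraries, and the first ND library is the high point at 1.64 for Col5a1 to Col5a2.

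The other chains included Col23a1, which had the largest positive fold change of the tested members. Of 25 members 12 were tested, 0 were higher and 0 lower (edgeR, with 3 higher and 1 lower at an unadjusted p under 0.05), whereas DESeq2 called 2 higher, Col16a1 and Col23a1, and limma 0. Log2 fold changes were positive for 5 and negative for 7, with a median of -0.04. Summed over the 25, the level was 1652 and 1505 CPM in HFD and 1365 and 1602 CPM in ND libraries, which overlapped. Without Col18a1, the largest contributor, the sums were 847 and 748 CPM in HFD and 594 and 679 CPM in ND libraries, which did not overlap (log2 ratio 0.33).

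Multiplexins are basement membrane zone collagens with an interrupted helix, and Col18a1 encodes the precursor of endostatin. Col18a1 had 110.4 and 105 FPKM in HFD and 114 and 134 FPKM in ND libraries. Its HFD values were the lower ones when set in FPKM and overlapped with ND on the TMM scale, at 805 and 756 CPM in HFD and 771 and 923 CPM in ND libraries (log2 fold change -0.12 ± 0.12, SE; edgeR adjusted p = 0.748). Col15a1, the related multiplexin, had 20 and 31 counts in HFD and 22 and 13 counts in ND libraries.

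Fibril-associated collagens with interrupted helices (FACIT), which bind to the surface of fibrils or link them to basement membranes, differed among themselves. Col12a1 had 24.7 and 22.3 FPKM in HFD and 13.8 and 20.2 FPKM in ND libraries. Both HFD libraries were above both ND libraries, with a log2 fold change of 0.55 ± 0.17 (SE; edgeR adjusted p = 0.179), which was 0.30 without the first ND library and 0.86 without the second. Col16a1 had 24.9 and 22.0 FPKM in HFD and 11.3 and 17.4 FPKM in ND libraries. Its log2 fold change of 0.80 ± 0.19 (SE) missed the threshold in edgeR (adjusted p = 0.071) and passed in DESeq2 (adjusted p = 0.0063). In edgeR Col16a1 passed with at least 10 counts in every library (adjusted p = 0.027) and with the robust prior (0.039). It passed with no filter too (4.3e-05), but not with library totals alone (0.092) or equal sums of TPM (0.142). The log2 fold change was 0.51 without the first ND library and 1.15 without the second. Col14a1 went the other way, with 12.4 and 9.48 FPKM in HFD and 20.3 and 12.9 FPKM in ND libraries. On the TMM scale its first HFD library reached above the second ND library, at 90.3 and 68.3 CPM in HFD and 137 and 89.0 CPM in ND libraries (log2 fold change -0.51 ± 0.21, SE; edgeR adjusted p = 0.303). That value was -0.16 without the first ND library and -0.80 without the second. For all 3 genes the second ND library lay nearer to the HFD libraries than the first did. Summed over the 9 FACIT members the level was 657 and 572 CPM in HFD and 420 and 507 CPM in ND libraries, with the diets apart by a log2 ratio of 0.41.

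**Figure D4:**
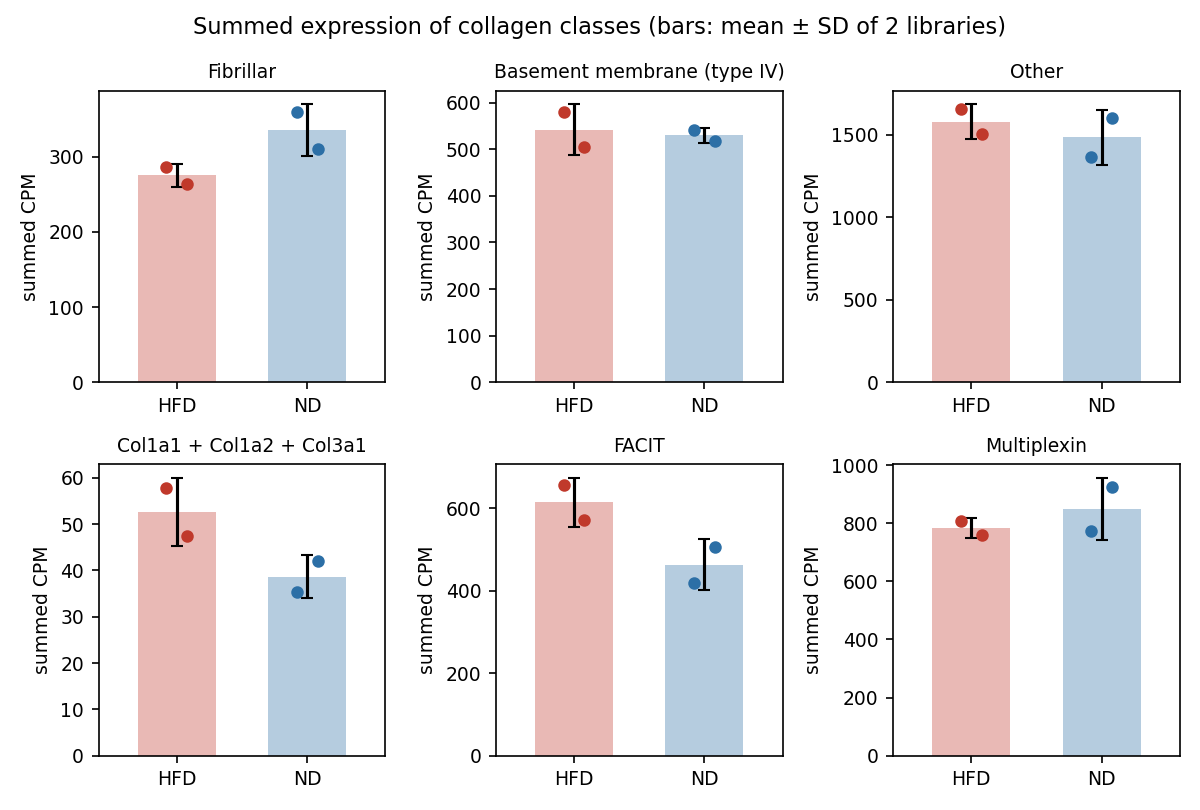
Summed CPM of all members of each class in each library (points) with mean and SD of the 2 libraries of a diet (bars from 0), HFD left of ND. HFD lies below ND for fibrillar chains and above it for Col1a1, Col1a2 and Col3a1 together and for FACIT chains; the other panels overlap.

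Col23a1, a transmembrane collagen of epithelial cells, had 159 and 114 counts (3.17 and 2.31 FPKM) in HFD and 22 and 67 counts (0.39 and 1.25 FPKM) in ND libraries. Both HFD libraries were above both ND libraries. The log2 fold change of 1.84 ± 0.48 (SE) missed the threshold in edgeR (adjusted p = 0.099) and passed in DESeq2 (adjusted p = 0.022). It was 1.22 without the first ND library and 2.92 without the second.

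Type VI collagen, which forms beaded microfibrils close to cells, had no called chain. Col6a1 had 22.7 and 19.8 FPKM in HFD and 22.3 and 23.3 FPKM in ND libraries, and Col6a2 had 3.96 and 4.43 FPKM in HFD and 5.18 and 4.18 FPKM in ND libraries. Their log2 fold changes were -0.02 ± 0.14 and -0.07 ± 0.19 (SE). Col6a3, the long chain that completes the type VI trimer, was far lower than Col6a1 per length, at 0.51 and 0.32 FPKM in HFD and 0.13 and 0.37 FPKM in ND libraries. Col6a4, Col6a5 and Col6a6 had at most 11 counts in any library and were not tested.

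Type VIII collagen is a short-chain network former known from vessel walls and the cornea. Col8a2 had 3.83 and 3.84 FPKM in HFD and 4.53 and 4.71 FPKM in ND libraries. Its HFD libraries were below both ND libraries, with a log2 fold change of -0.18 ± 0.24 (SE; edgeR adjusted p = 0.811). Col8a1 had 40 and 63 counts in HFD and 120 and 28 counts in ND libraries, which overlapped. Col9a3, a cartilage FACIT, had 0 and 12 counts in HFD and 23 and 6 counts in ND libraries. Col20a1 had 8 and 7 counts in HFD and 36 and 9 counts in ND libraries and did not pass the filter. Col9a2, Col10a1, Col19a1, Col25a1 and Col28a1 had at most 6 counts in any library. Col9a1, Col13a1, Col22a1 and Col26a1 had 0 counts in all 4 libraries, which allows up to 3 counts in each.

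By position, the 3 type IV pairs were the members with starts closest together. Col3a1 and Col5a2 are neighbours on chromosome 1, tail to tail with starts 191744 bases apart, and had log2 fold changes of 1.06 and -0.14. Of the 25 tested members 16 overlapped another annotated gene, and for 3 of them that gene held at least 5% of the member's counts. These were Col4a1 and Col4a2, which overlap each other by 22 bases, and Col9a3, beside Tcfl5.

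Genes that make, bind or accompany collagens were read from further lists. Of 38 genes of collagen biosynthesis 31 were tested and 0 were called higher or lower by edgeR, with 2 higher and 2 lower at an unadjusted p under 0.05, 1 higher by DESeq2 and 0 by limma (median log2 fold change 0.08). Adamts14, a protease that removes the amino-terminal propeptide of fibrillar procollagens, had 13.3 and 30.4 CPM in HFD and 1.65 and 6.18 CPM in ND libraries. The diets did not overlap, and its log2 fold change of 2.49 ± 0.54 (SE) missed the threshold in edgeR (adjusted p = 0.051) and was the gene called by DESeq2. Adamts3, a protease of the same family, had 12.3 and 18.7 CPM in HFD and 30.9 and 24.1 CPM in ND libraries (log2 fold change -0.83 ± 0.27, SE; edgeR adjusted p = 0.202). P3h2, a prolyl 3-hydroxylase that acts on type IV collagen, had 78.2 and 70.0 CPM in HFD and 45.5 and 52.7 CPM in ND libraries (log2 fold change 0.59 ± 0.16, SE; edgeR adjusted p = 0.118). Sec24d, a coat protein for export of procollagen, had a log2 fold change of -0.44 ± 0.20 (SE; edgeR adjusted p = 0.360). The collagen chaperone Serpinh1 and the prolyl hydroxylase subunit P4hb had log2 fold changes of -0.04 ± 0.15 and -0.03 ± 0.12 (SE).

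Of 10 collagen receptors 6 were tested and 0 were called by edgeR, DESeq2 or limma, with 2 higher at an unadjusted p under 0.05. Log2 fold changes were positive for 6 of 6, with a median of 0.42. Over all genes tested 50.1% were positive, and 7.24% were higher at an unadjusted p under 0.05. Itga10, Itga11, Lair1 and Gp6 had at most 4 counts in any library and were not tested. Ddr1, a receptor tyrosine kinase of epithelia, had 297 and 262 CPM in HFD and 195 and 244 CPM in ND libraries (log2 fold change 0.35 ± 0.14, SE; edgeR adjusted p = 0.302). Itga2, an integrin subunit for collagen, had 78.9 and 69.5 CPM in HFD and 44.2 and 62.2 CPM in ND libraries (log2 fold change 0.48 ± 0.19, SE; edgeR adjusted p = 0.281). For both, HFD was above ND, and the second ND library was the nearer to HFD. For Itga1 and Ddr2 the diets overlapped (log2 fold changes 0.52 ± 0.29 and 0.50 ± 0.41, SE).

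Of 15 laminin, nidogen, perlecan and related genes of basement membranes 14 were tested and 0 were called by edgeR, DESeq2 or limma, with 2 higher at an unadjusted p under 0.05 and a median log2 fold change of 0.12. The laminin chain Lama4 had a log2 fold change of 0.66 ± 0.27 and the linker Nid1 of 1.28 ± 0.54 (SE), with edgeR adjusted p of 0.317 and 0.328. Nid1 was low, at 5.59 and 5.74 CPM in HFD and 2.23 and 2.41 CPM in ND libraries. The laminin chains Lama3 and Lama1 had log2 fold changes of 0.25 ± 0.13 and 0.92 ± 0.52 (SE; edgeR adjusted p = 0.427 and 0.483). Of 10 small leucine-rich proteoglycans, which coat collagen fibrils, 7 were tested and 0 were called by edgeR, DESeq2 or limma, with 1 higher and 1 lower at an unadjusted p under 0.05. Decorin (Dcn) had 16.9 and 13.5 CPM in HFD and 6.31 and 11.1 CPM in ND libraries, and biglycan (Bgn) 296 and 226 CPM in HFD and 302 and 363 CPM in ND libraries. These went in opposite directions, with log2 fold changes of 0.81 ± 0.35 and -0.35 ± 0.15 (SE; edgeR adjusted p = 0.342 and 0.346). Aspn and Lum, of the same family, had at most 26 counts in any library and overlapped between the diets.

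**Figure D5:**
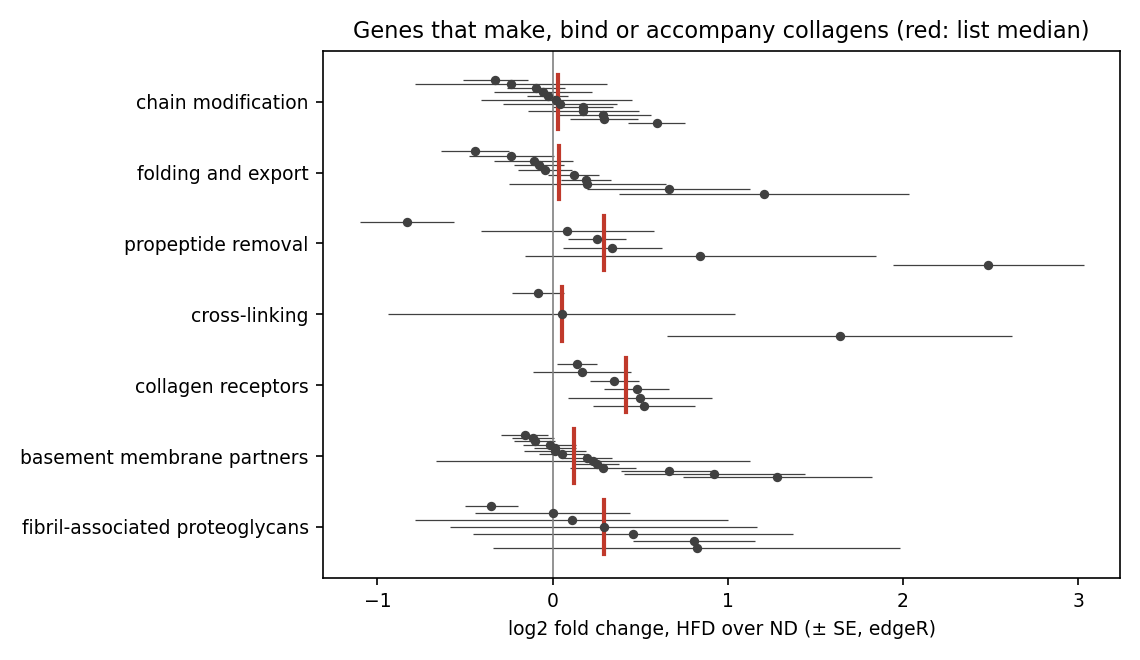
Log2 fold change of HFD over ND with its standard error (edgeR) for tested genes of collagen biosynthesis (4 upper rows), collagen receptors, basement membrane partners and fibril-associated proteoglycans; red lines are list medians. The 6 tested receptor genes lie right of 0, as did 50.1% of all genes tested, and Adamts14 at 2.49 is the rightmost point.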

How the data were processed

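RNA was extracted with the RNeasy Mini Kit, per the labels' protocols. The submitters' processing notes list HISAT2 2.0.1, cutadapt 1.9.1 and bcl2fastq 2.17.1.14. No source used here states the counter, its use of strand, the annotation or the build. The table that the authors deposited holds raw counts and FPKM per gene and library. The deposited FPKM equalled count over exonic size and library total within 0.005. All 42 members have their GENCODE M21 coordinates, so positions are on GRCm38.

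Counts were tested in R 4.3.3 with edgeR 4.0.16 (quasi-likelihood, TMM, no replicate term), after its default filter with a minimum count of 10 in 2 libraries and 15 in total. Adjustment was by Benjamini-Hochberg over 14479 genes. A standard error is the log2 fold change over the root of F. The scripts were tested on simulated data. DESeq2 1.42.0, limma 3.58.1 on log2(FPKM + 1) and log2(FPKM + 0.1), and other filters and scalings were alternatives. Equal sums of TPM were added after the data were seen. The text names called members, the 8 highest by FPKM and the 3 smallest p of each class, and up to 4 smallest p of each other list. Other members are named to account for all 42. Serpinh1, P4hb and Tcfl5 were added after their values were seen. The members and lists were chosen with earlier results of these data known.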

Additional observations from a re-analysis of the deposited data

How the results depend on the processing

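The call of Col27a1 rests on all 4 libraries. Leaving out each library in turn gave 0 to 81 higher and 0 to 2 lower genes, with 0 collagen genes called in each case. Without the first ND library edgeR called 0 genes in all, with 1488 at an unadjusted p under 0.05. The class medians of log2 fold change ranged from -0.22 to 0.034 (fibrillar), from -0.13 to 0.15 (basement membrane) and from 0.0073 to 0.22 (other). For other chains the median was -0.04 with all 4 libraries, so its sign changed in each of these fits. The log2 ratios of class sums ranged from -0.39 to -0.17, from -0.072 to 0.13 and from -0.018 to 0.21. A diet left with 1 library takes its spread from the other diet. Log2 fold changes of 12 members changed sign in these fits, over ranges of -0.0041 to 0.034 (Col1a2), -0.50 to 1.17 (Col2a1), -0.21 to 0.092 (Col4a1), -0.055 to 0.22 (Col4a2), -1.17 to 0.037 (Col4a3), -0.28 to 0.99 (Col4a4). They ran from -0.22 to 0.23 (Col4a6), -0.13 to 0.088 (Col6a1), -0.21 to 0.084 (Col6a2), -0.92 to 1.07 (Col8a1), -6.77 to 0.19 (Col9a3) and -0.24 to 0.016 (Col18a1).

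With no filter 408 genes were higher and 225 lower, 3 (Col12a1, Col16a1 and Col23a1) and 2 (Col14a1 and Col27a1) of them collagens. The medians were then -0.15 (fibrillar) and 0.54 (other). Those medians also took in members that had not passed the filter. They were the values of Col5a2 and Col12a1, which stood at -0.14 and 0.55 in the main fit. With at least 10 counts in every library 70 genes were lower and 1 collagen higher, and with the robust prior 60 and 1. In both fits that collagen was Col16a1. DESeq2 called 275 higher and 119 lower genes, with 2 collagens higher. At an adjusted p under 0.1 there were 280 and 101, again with 2 collagens higher. Limma with either pseudocount called 2 genes higher and 0 lower and 0 collagens. Library totals alone gave 65 lower genes and a median of -0.13 for other chains, where the median over all genes tested was -0.085. Equal sums of TPM gave 88 higher and 3 lower genes and 0 collagens. The median was then -0.12 for other chains and -0.071 over all genes tested. With the trend on exonic size removed, 83 genes were lower and the fibrillar median was -0.085. With multiplexins moved to the basement membrane class, the log2 ratio of the sum of other chains was 0.32.

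Among single members, Col6a1 was at 0.0099 with upper quartile scaling, where the median over all genes tested was 0.027. Col1a2, Col4a6 and Col4a2 were at -0.071, -0.063 and -0.00016 with library totals. With equal sums of TPM Col1a2 and Col4a6 were at -0.057 and -0.047, and with the size trend removed at -0.085 and -0.042. With limma on log2(FPKM + 1) Col1a2, Col4a6 and Col4a2 were at -0.043, -0.067 and -0.0057, and on log2(FPKM + 0.1) at -0.068, -0.077 and -0.0062. Over all members and alternatives 395 values kept direction and side of the threshold, 33 changed sign, 13 gained the call and 7 lost it. With 1 of 25 tested members called in the main fit, keeping the side mostly meant staying uncalled. The cause of the other changes was not tested.

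The replicate numbers of the diets are not stated to pair libraries, and deviations of same-numbered libraries had a correlation of -0.0046. With a replicate block 308 genes were higher and 111 lower, 3 and 1 of them collagens. The 3 higher ones were Col12a1 (adjusted p = 0.044), Col16a1 (0.0036) and Col23a1 (0.0052), and the lower one was Col27a1 (0.0020). The 17 members that did not pass the filter on low counts were not tested, and no statement on diet is made for them.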
